A study of Mus musculus with 399 samples.

Results

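The soleus of young TALLYHO/Jng (TH) mice was profiled by RNA sequencing after 1 week of high-fat feeding. The 24 libraries were every TH soleus library taken at 5 weeks of age, 13 from mice on the high-fat diet and 11 from mice on chow, out of 399 libraries in the series. TH is an inbred mouse strain used as a polygenic model of obesity and type 2 diabetes, and the soleus is a small postural calf muscle rich in slow oxidative fibres. Pups of both sexes were weaned at 4 weeks onto a high-fat or a standard chow diet. The 5-week groups held 7 high-fat and 6 chow females, and 6 high-fat and 5 chow males, with no genetic alteration or drug named in the labels. A pair of sets of soleus libraries served for comparison: 25 from C57BL/6J (B6) mice given the same diets for the same week, and 24 from TH mice fed for 16 weeks to the age of 20 weeks. The labels gave an animal number for each library but no litter, cage or collection time, so p-values measure the spread between these libraries.

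Skeletal muscle burns both glucose and fatty acids. When fatty acids are plentiful, they bind peroxisome proliferator-activated receptors (PPARs), nuclear receptors that raise genes for fatty acid import and oxidation, and pyruvate dehydrogenase kinases slow the entry of glucose carbon into the tricarboxylic acid cycle. Angptl4, Pdk4, Ucp3, Cpt1a and Plin5 are textbook members of this fuel switch in muscle. The fetal acetylcholine receptor, which carries the gamma subunit Chrng, is replaced after birth by the adult receptor with the epsilon subunit Chrne.

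Promoter sequences were available from RefSeq (build GRCm38.p6, the C57BL/6J reference genome and not TH) for 17 of the 23 genes that rose on the high-fat diet and 9 of the 12 that fell, as the 250 bases before the start of transcription. The nuclear receptor core motif AGGTCA was searched on both strands. It stood in 14% of all 32851 windows, in 4 of the 17 rises (Slc25a34, Ucp3, Plin5 and Cpt1a) and in 0 of the 9 falls. The direct repeat spaced by 1, the form of this motif that PPARs bind as heterodimers, stood in 0.3% of all windows and in 0 of those 17 and 9 windows. The 4 windows with the core motif are shown because they belong to genes of the fuel switch, with the motif in capitals (TGACCT is the same site read on the other strand). Their positions are chr4:141623835-141624084 on the minus strand for Slc25a34, chr7:100472741-100472990 on the plus strand for Ucp3, chr17:56117549-56117798 on the minus strand for Plin5 and chr19:3323051-3323300 on the plus strand for Cpt1a.
Slc25a34: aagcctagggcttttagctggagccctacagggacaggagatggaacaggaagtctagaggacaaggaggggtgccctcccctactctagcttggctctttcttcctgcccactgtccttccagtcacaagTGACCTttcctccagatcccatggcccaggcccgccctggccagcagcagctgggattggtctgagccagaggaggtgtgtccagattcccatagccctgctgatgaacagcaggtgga
Ucp3: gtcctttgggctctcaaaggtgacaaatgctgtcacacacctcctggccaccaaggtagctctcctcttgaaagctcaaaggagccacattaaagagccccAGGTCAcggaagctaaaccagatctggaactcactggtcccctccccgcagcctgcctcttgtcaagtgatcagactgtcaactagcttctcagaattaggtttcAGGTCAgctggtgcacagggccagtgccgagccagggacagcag
Plin5: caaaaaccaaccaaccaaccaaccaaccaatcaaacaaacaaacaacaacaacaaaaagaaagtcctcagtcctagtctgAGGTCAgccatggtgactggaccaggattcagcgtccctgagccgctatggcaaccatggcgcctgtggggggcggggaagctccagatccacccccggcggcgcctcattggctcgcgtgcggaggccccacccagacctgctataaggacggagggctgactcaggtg
Cpt1a: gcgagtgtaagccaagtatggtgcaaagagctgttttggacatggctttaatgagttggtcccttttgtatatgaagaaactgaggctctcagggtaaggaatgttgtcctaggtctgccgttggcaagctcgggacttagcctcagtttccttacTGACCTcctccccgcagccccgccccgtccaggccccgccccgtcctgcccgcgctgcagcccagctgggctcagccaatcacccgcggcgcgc
The motif began 119 bases before the start in Slc25a34, 149 and 44 bases before it in Ucp3, 170 in Plin5 and 94 in Cpt1a. Plin5 has 2 annotated windows, of which this is 1. For Chrng, at chr1:87205561-87205810 on the plus strand, the muscle E-box CAGCTG is in capitals.
Chrng: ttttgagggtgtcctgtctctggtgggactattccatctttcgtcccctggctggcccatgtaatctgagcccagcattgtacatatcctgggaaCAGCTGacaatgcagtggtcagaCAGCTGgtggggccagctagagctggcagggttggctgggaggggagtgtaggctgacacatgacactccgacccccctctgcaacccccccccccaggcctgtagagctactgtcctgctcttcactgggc
The E-box, bound by myogenic factors, stood 155 and 132 bases before the Chrng start. It was found in 13% of all windows, in 6 of the 17 rises and in 2 of the 9 falls. These matches describe letters in the reference strain and no binding was measured.

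The libraries held 4169650 to 15725272 counted reads (median 10738514), and each sex and diet group spanned a range that overlapped the others. Xist and the Y-linked Ddx3y matched the labelled sex in 24 of 24 libraries. Defining genes of slow muscle were abundant: Myh7, the slow myosin heavy chain, ranged from 13600 to 20400 CPM (a gene's reads relative to all counted reads of the library, scaled with TMM factors) and the muscle creatine kinase Ckm from 3020 to 6810 CPM. The adipocyte hormone Adipoq lay between 1.74 and 31.7 CPM with overlapping diet groups. The summed level of 16 tested Schwann cell and nerve markers set 3 libraries apart, at 6080 CPM in replicate 4 of the chow males, 6760 CPM in replicate 4 of the high-fat females and 5400 CPM in replicate 4 of the high-fat males, against 318 to 902 CPM in the others. Both diets held such libraries, and counts are given below with and without nerve-rich libraries where leaving them out moved a count of genes. The slope of expression on gene GC content, a measure of library composition, also overlapped between diets at 5 weeks, from -5.37 to 7.11 in chow males against -5.88 to 9.27 in high-fat males, and from -4.97 to 4.38 against -6.85 to 4.5 in females (log2 CPM per unit GC fraction).

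A week of high-fat feeding raised a small group of fatty acid handling genes in TH soleus. With sex as a covariate, 23 of 16278 genes rose (0.141%) and 12 fell (0.0737%) at an adjusted p under 0.05 in edgeR's quasi-likelihood test with Benjamini-Hochberg adjustment, and 994 genes had an unadjusted p under 0.05. The rises were led by Angptl4, Pdk4, Chrna2, Acot1 and Acot2, and 10 rises and 3 falls were at least 2-fold. All 35 called genes had the same sign in females and males, which the fit over both sexes favours. In 0 of the 16278 genes did the high-fat and chow ranges stand apart over both sexes together. Within females the ranges stood apart for 11 of the 35 genes, against 0.289% of all genes, and within males for 19, against 1.58%. Since these genes were called on the same libraries, those shares describe the libraries and add no support. In bulk tissue, fewer cells of a type and less RNA per cell cannot be told apart. Without the 3 nerve-rich libraries 13 genes rose and 9 fell, and 21 of the 35 genes were still called. With the GC slope as a covariate 92 rose (0.565%) and 109 fell (0.670%), which included the 35, so that falls were then the larger part. Of the 35, 19 were called whichever of the 24 libraries was left out. The other 16 were lost in at least 1 of these fits. Gpat3 and Cdhr3 were lost in 19 of the 24, Nceh1 and Inhbb in 17 and Fbp2 in 15. Cpt1a, Ces2d-ps, Kif28 and 1810059H22Rik were lost in 14, Nudt7 in 13, Plin5 in 11 and Hr in 10. BC048679 and Rabep2 were lost in 7, Iffo1 in 6 and Nctc1 in 1. The count of 35 went to 21 without replicate 3 of the chow females or replicate 2 of the chow males, to 23 and 22 without replicates 3 and 5 of the high-fat females, and to 58 without replicate 6 of the high-fat females.

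Angptl4 encodes a secreted inhibitor of lipoprotein lipase, the enzyme that frees fatty acids from circulating triglyceride. Its level was 3.89 to 11.5 CPM (median 7.88) in chow females and 25 to 140 CPM (median 93.0) in high-fat females. In chow males it was 29.6, 7.39, 2.99, 19.2 and 23.7 CPM, and in high-fat males 22.3 to 73.4 CPM (median 49.8). The diets stood apart in females and overlapped in males, and 10 of 13 high-fat libraries lay above every chow library. The rise over both sexes was 5.58-fold (log2 fold change 2.48 ± 0.41 SE, edgeR adjusted p = 0.0062).

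Pdk4 is the kinase that inhibits pyruvate dehydrogenase and so spares glucose. It was among the more abundant transcripts of the set, at 274 to 700 CPM (median 477) in chow females and 1120 to 2860 CPM (median 1790) in high-fat females. Chow males had 280, 381, 96.3, 554 and 554 CPM, and high-fat males 694 to 2470 CPM (median 1260). The diets stood apart within each sex, and 12 of 13 high-fat libraries exceeded every chow library. The rise was 3.90-fold (log2 fold change 1.96 ± 0.27, edgeR adjusted p = 0.00081).

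Acot1 and Acot2 are neighbouring acyl-CoA thioesterases, the first cytosolic and the second mitochondrial, and their close sequence means that reads could be divided between them. Acot1 was at 3.47 to 9.74 CPM (median 6.13) in chow females and 10.5 to 39.2 CPM (median 23.6) in high-fat females. It was at 11.9, 5.52, 5.48, 11 and 11 CPM in chow males and at 18 to 46.6 CPM (median 21.7) in high-fat males. The groups did not overlap within either sex. Acot1 rose 3.31-fold (1.73 ± 0.24, edgeR adjusted p = 0.000867) and Acot2 rose 2.60-fold (1.38 ± 0.19, adjusted p = 0.00081). Acot2 also stood apart within each sex, with medians of 20.2 and 54.2 CPM in chow and high-fat females, 30.3 CPM as the lowest high-fat female, and 43.3 CPM as the lowest high-fat male against 31 CPM as the highest chow male.

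Slc25a34, Ucp3 and Plin5 also rose, while the list of 19 fatty acid uptake and lipid storage genes had 0 members called in edgeR and 1 in DESeq2, which called 0.362% of all genes higher. Slc25a34, a member of the mitochondrial carrier family, was at 16.6 to 48.1 CPM in chow females, 46.8 to 126 CPM in high-fat females, 18.4 to 65.9 CPM in chow males and 55.9 to 136 CPM in high-fat males, overlapping in both sexes, and rose 2.49-fold (1.32 ± 0.23, edgeR adjusted p = 0.00785). Ucp3, the muscle uncoupling protein of the inner mitochondrial membrane, had medians of 29.1 CPM in chow females, 94.8 CPM in high-fat females, 54.6 CPM in chow males and 118 CPM in high-fat males, with overlap in both sexes. It rose 2.34-fold (1.22 ± 0.23, adjusted p = 0.0141). Plin5, a perilipin that ties lipid droplets to mitochondria, was at 30 to 45.7 CPM in chow females and 47.9 to 116 CPM in high-fat females, with no overlap. In chow males it was at 113, 34.6, 42.1, 36 and 46.8 CPM, and in high-fat males at 63.0 to 173 CPM, so that the overlap came from 1 chow male. That male, replicate 1, also had the highest chow level of Fabp3, the muscle fatty acid binding protein, at 2650 CPM. Plin5 rose 2.04-fold (1.03 ± 0.21, adjusted p = 0.0326). Without the nerve-rich libraries Ucp3 and Plin5 missed the threshold at nearly unchanged size (1.21, adjusted p = 0.059, and 1.02, adjusted p = 0.0601), and Plin5 was also lost in 11 of 24 fits that left out 1 library, for example without replicate 2 of the chow males (adjusted p = 0.0722).

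The list of 16 fatty acid responsive fuel switch genes had 9 members that rose and 0 that fell, against the 0.141% of all genes that rose. The 9 were Angptl4, Pdk4, Acot1, Acot2, Slc25a34, Ucp3, Plin5, Cpt1a and Pex11a. The list's median log2 fold change was 0.86, against -0.015 for all genes tested, and all 16 members lay above 0, against 7550 of 16278 genes. This list was drawn up with earlier results of these libraries known, so its count is a description. Cpt1a, the carnitine palmitoyltransferase isoform best known from liver, rose 1.66-fold (0.73 ± 0.15, adjusted p = 0.0337) from medians of 17.4 CPM in chow females and 15.3 CPM in chow males to 30.1 and 28.2 CPM. Pex11a, a factor in peroxisome division, rose 1.45-fold (0.54 ± 0.09, adjusted p = 0.00875), and missed the threshold without the nerve-rich libraries (adjusted p = 0.0502). The 7 members that did not pass included Txnip (0.74, adjusted p = 0.23), Mlycd (0.67, adjusted p = 0.134), Fabp3 (0.48, adjusted p = 0.286), Plin2 (0.44, adjusted p = 0.225), Slc25a20 (0.36) and Ucp2 (0.22), all as log2 fold changes. Without the nerve-rich libraries 6 of the 16 were called, where 13 of 16357 genes rose in all. With the GC slope 12 of the 16 rose, against 0.565% of all genes.

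**Figure D1:**
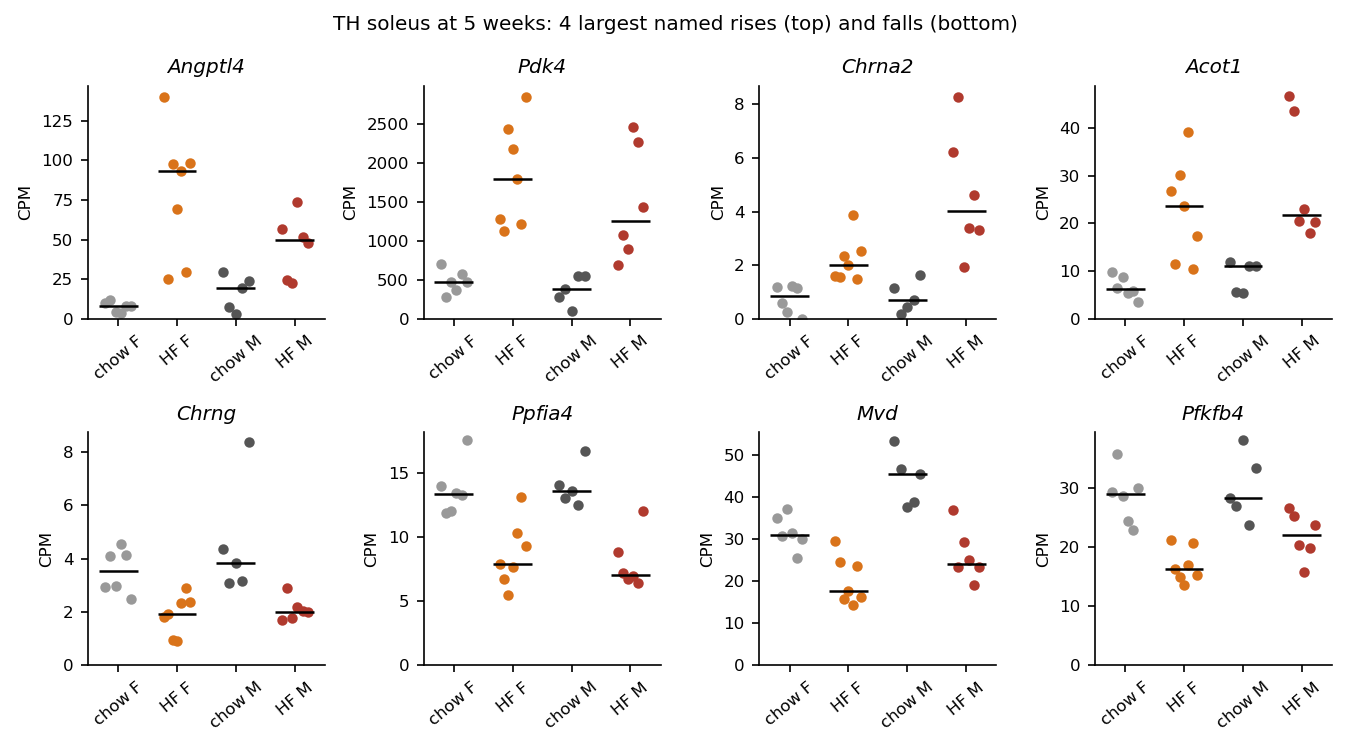
CPM in each of the 24 TH soleus libraries at 5 weeks for the 4 largest rises (Angptl4, Pdk4, Chrna2, Acot1) and the 4 largest falls (Chrng, Ppfia4, Mvd, Pfkfb4) among the genes named by the size rule, which leaves out predicted genes and those with a mean log2 CPM under 1, by sex and diet, with each point a library and the black line the group median. For Pdk4 the high-fat females start at 1120 CPM, above the highest chow female at 700 CPM.

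Genes of the oxidation pathway itself moved less. In DESeq2 3 of 20 mitochondrial fatty acid oxidation genes rose, against 0.362% of all genes. In edgeR 0 of the 20 passed the test over both sexes, and the median log2 fold change was 0.35. The nearest were Acadl, the long-chain acyl-CoA dehydrogenase (0.44 ± 0.10, adjusted p = 0.0577), Hadhb, a subunit of the trifunctional protein (0.54 ± 0.12, adjusted p = 0.0577), and Decr1, a reductase for unsaturated fatty acids (0.40 ± 0.09, adjusted p = 0.0748). With the GC slope as a covariate 7 of the 20 rose, against 0.565% of all genes. Of the 45 gene lists examined, 41 had no called member in edgeR and 33 had none in DESeq2. Lists with no member called in edgeR included the nuclear oxidative phosphorylation subunits (42 genes, median 0.065), glycolysis and lactate (18 genes, 0.092), insulin signalling (20 genes, 0.048), glucose uptake and glycogen (20 genes, 0.085), and the slow (16 genes, -0.085) and fast fibre genes (17 genes, 0.064). The 14 tested genes of the macrophage list had a median of 0.079. Summed over all 20 members of that list, the level was 58.5 to 141 CPM with overlapping diets. The interferon response list of 22 genes had the lowest median, -0.444, with no member called in edgeR. The adipocyte marker list had 16 tested genes, 14 of them above 0, with a median of 0.27 over both sexes, 0.045 in females and 0.564 in males. It had 0 members called in edgeR. In DESeq2 2 members rose and with the GC slope 3, against 0.362% and 0.565% of all genes. Summed over all 18 members of the list, the level was 4330 to 6590 CPM in chow females and 4500 to 6850 CPM in high-fat females. In males it was 3290 to 5490 CPM and 3470 to 6130 CPM, with overlap in both sexes. Adipoq, given above, lay far below these sums, and Fabp4 stood on the endothelial list as well. The sums are thus no measure of fat content. The part of adipocytes in the changes of lipid genes was not tested.

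**Figure D2:**
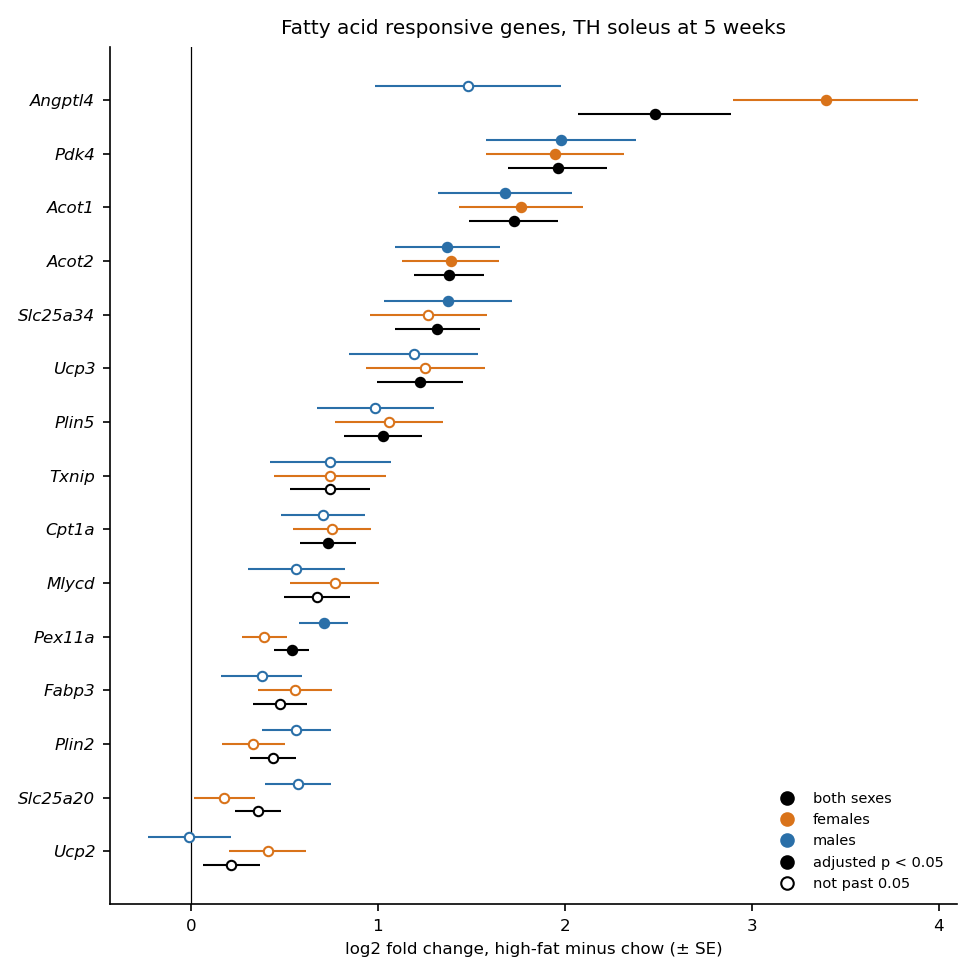
Log2 fold change (high-fat minus chow) with SE for 15 of the 16 fuel switch genes over both sexes (black), in females (orange) and in males (blue), where filled points had an adjusted p under 0.05 in edgeR. All 15 black points lie above 0, and 9 are filled.

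Chrna2, the third largest rise, was not a member of the fuel switch list. It encodes the alpha 2 subunit of nicotinic acetylcholine receptors, known mostly from neurons. Levels were low: 0 to 1.23 CPM (median 0.864) in chow females and 1.48 to 3.88 CPM (median 2.0) in high-fat females. Chow males had 1.15, 0.193, 0.446, 0.71 and 1.63 CPM, and high-fat males 1.94 to 8.28 CPM (median 4.01). The diets stood apart within each sex. The level of 0 was in the shallowest library, replicate 6 of the chow females, where a count of 0 allows up to 0.743 CPM (3 reads, counting error only). The rise was 3.89-fold (1.96 ± 0.35, edgeR adjusted p = 0.0114), and 1.94 with an adjusted p of 0.0502 without the nerve-rich libraries.

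The other rises named by the size rule were metabolic enzymes and a transporter. Fbp2, the muscle fructose bisphosphatase, rose 1.96-fold (0.97 ± 0.20, adjusted p = 0.0382), from 7.93 to 16.4 CPM in chow females to 14.7 to 32.8 CPM, and from 6.94 to 27.4 CPM in chow males to 22.8 to 44.3 CPM. Nceh1, a neutral cholesterol ester hydrolase, rose 1.85-fold (0.89 ± 0.19, adjusted p = 0.035), and both genes missed the threshold without the nerve-rich libraries (adjusted p = 0.0874 and 0.105). Slc1a1, a glutamate and aspartate transporter, rose 1.76-fold (0.82 ± 0.15, adjusted p = 0.0114) from 2.85 to 3.96 CPM to 4.28 to 8.29 CPM in females and from 1.02 to 2.28 CPM to 2.4 to 4.33 CPM in males, with no overlap within a sex. Without the nerve-rich libraries Slc1a1 was at 0.75 and missed the threshold (adjusted p = 0.0502). Abhd1, an alpha/beta hydrolase fold protein, rose 2.09-fold (1.06 ± 0.20, adjusted p = 0.014). Abhd1 shares exons on the opposite strand with Preb, whose log2 fold change was 0.14.

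The remaining called rises, named after their values were seen, included Nuak1, a kinase related to AMP-activated protein kinase. Its level was 91.5 to 134 CPM in chow females, 145 to 182 CPM in high-fat females and 110 to 171 CPM in high-fat males, where the chow males had a median of 88.9 CPM, and the diets stood apart within each sex. The rise was 1.55-fold with a small error (0.63 ± 0.09, adjusted p = 0.000919). Gpat3, an acyltransferase of triglyceride synthesis (0.67, adjusted p = 0.0434), Nudt7, a peroxisomal coenzyme A hydrolase (0.47, adjusted p = 0.0337), Hr, a nuclear receptor corepressor (0.53, adjusted p = 0.0337), and Inhbb, an activin subunit (0.66, adjusted p = 0.0496), rose less. Alpk2, an alpha kinase, and Plbd1, a phospholipase B domain protein, rose by 0.62 (adjusted p = 0.00689) and 0.58 (adjusted p = 0.00511). BC048679 (1.29) and Ces2d-ps (0.87) completed the 23.

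Of the 12 genes that fell, 3 fell at least 2-fold. Chrng, the fetal receptor subunit whose promoter is printed above, was at 2.48 to 4.56 CPM (median 3.53) in chow females and 0.911 to 2.89 CPM (median 1.92) in high-fat females. Chow males had 4.35, 3.08, 3.82, 3.15 and 8.37 CPM, and high-fat males 1.71 to 2.89 CPM (median 2.02). The diets overlapped in females and stood apart in males, and 11 of 13 high-fat libraries lay below every chow library. Chrng fell to 0.499 of the chow level (SE 0.19 on the log2 scale, edgeR adjusted p = 0.0206). It was the called member of the neuromuscular junction list, of which 15 genes were tested. The adult subunit Chrne was at -0.48 ± 0.10 (adjusted p = 0.0569) and Chrnd, the delta subunit, at -0.34 ± 0.11 (adjusted p = 0.333), while Chrna1 was at 0.14.

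Mvd, the decarboxylase that forms isopentenyl diphosphate for cholesterol synthesis, was at 25.5 to 37.2 CPM in chow females and 14.4 to 29.6 CPM in high-fat females. It was at 53.5, 46.6, 37.6, 39 and 45.5 CPM in chow males and 19 to 37 CPM in high-fat males. The fall was -0.70 ± 0.12 (adjusted p = 0.00905), with overlap in females and none in males. Mvd was the called member of the 24 tested cholesterol synthesis genes, whose median was -0.056 with Sqle, which makes squalene epoxide, at -0.16 and not called. Pfkfb4, a bifunctional enzyme that sets the level of an activator of glycolysis, was at 22.9 to 35.8 CPM in chow females and 13.6 to 21.1 CPM in high-fat females, without overlap. It was at 23.7 to 38.2 CPM in chow males and 15.8 to 26.7 CPM in high-fat males, and fell by 0.61 on the log2 scale (-0.61 ± 0.11, adjusted p = 0.0108).

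Ppfia4, a liprin scaffold protein, was at 11.9 to 17.6 CPM in chow females, 5.51 to 13.2 CPM in high-fat females, 12.5 to 16.7 CPM in chow males and 6.39 to 12 CPM in high-fat males (-0.72 ± 0.13, adjusted p = 0.0114). P2rx6, a subunit of ATP-gated channels, changed by -0.57 ± 0.10 (adjusted p = 0.00689), Nctc1, a noncoding transcript of the Igf2 and H19 region, by -0.56 (adjusted p = 0.0202), Rabep2, a Rab effector, by -0.51 (adjusted p = 0.0332) and Iffo1 by -0.42 (adjusted p = 0.0331). Exons of Iffo1, Rabep2 and P2rx6 overlap those of Gapdh, Atp2a1 and Slc7a4 on the opposite strand, and the strand setting of the read counting was not given in the sources used here, so their values are uncertain. Gapdh was at -0.01 and the calcium pump Atp2a1 at 0.22, neither called. In all, 9 of the 35 called genes shared exon bases with another annotated gene. Gm5091, a predicted gene, had the largest fall, to 0.314 of the chow level (-1.67 ± 0.26, adjusted p = 0.00314), with 0.364 to 1.55 CPM in high-fat females against 1.71 to 5.32 CPM. Cdhr3 (-1.13), Kif28 (-0.96) and 1810059H22Rik (-0.89) were the others.

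The sexes were then compared. With 1 mean for each sex and diet, 13 genes passed in females (6 higher and 7 lower, 0.0799%) and 208 in males (141 higher and 67 lower, 1.28%). Pdk4, Acot1 and Acot2 were called in both, which is 23.1% of the female and 1.44% of the male calls. The 2 counts were not tested against each other, and they depended on single libraries: the female count was 2 without replicate 1, 2 or 3 of the chow females or replicate 1, 3, 4 or 5 of the high-fat females. It was 3 to 7 without replicate 4 or 6 of the chow females, 7 of the high-fat females, 1, 3 or 5 of the chow males, or 3, 5 or 6 of the high-fat males, and 33 without replicate 6 of the high-fat females. The male count was 14, 92, 93 and 355 without replicates 5, 1, 4 and 2 of the chow males, and 45, 48, 137 and 336 without replicates 2, 5, 6 and 3 of the high-fat males. Without the nerve-rich libraries they were 2 and 35. The direct test of the male minus the female diet difference called 0 genes (0%) in edgeR, with 2387 at an unadjusted p under 0.05, and 336 in DESeq2. Leaving out 1 library brought it to 281 (replicate 2 of the chow males), 168, 21 and 3 (replicates 4, 5 and 6 of the chow females), 116, 25 and 21 (replicates 3, 4 and 1 of the high-fat males), or 49 and 46 (replicates 2 and 6 of the high-fat females). With the GC slope as a covariate it called 1241 genes, of which 650 lay above 0 (3.99%). The smallest p-values without it belonged to Gpt2 (1.22), Slc9a4 (2.34), Gm9108 (1.2), Chp1 (0.95) and Taco1 (1.22), each with an adjusted p of 0.0561.

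Angptl4 was 3.40 ± 0.50 higher in high-fat females (log2, adjusted p = 0.007) and 1.48 ± 0.50 in males (adjusted p = 0.154), with a difference of -1.91 ± 0.66 (adjusted p = 0.187). Pdk4 rose by 1.95 in females (adjusted p = 0.0421) and 1.98 in males (adjusted p = 0.0182), and Acot1 by 1.77 and 1.68. The female calls also held Nfil3, a clock-linked repressor, at 1.46, and falls of Slc9a4 (-1.55), a sodium-proton exchanger, Sh3rf2 (-1.42), Lzts1 (-1.29) and Mid1ip1 (-1.12), a partner of acetyl-CoA carboxylase. The male calls were led by Chrna2 (2.56), Nt5c1a (2.21), a cytosolic nucleotidase that makes adenosine, Pdk4 and Acot1, and by falls of Unc13d (-1.78), Arhgef39 (-1.51), Elovl3 (-1.40), a fatty acid elongase, and Actc1 (-1.26), the cardiac actin.

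Mitochondrial fatty acid oxidation genes were called in males: 6 of 20 rose, against 0.866% of all genes, with a median of 0.52. The 6 were Acsl1, which activates long-chain fatty acids (1.15, adjusted p = 0.0112), Hadhb (0.94), Cpt1b, the muscle carnitine palmitoyltransferase (0.79), Etfdh (0.73), Acadl (0.69) and Decr1 (0.58). In females 0 of 20 passed and the median was 0.18. The male minus female difference passed for 0 of the 20 in edgeR. In DESeq2 it passed above 0 for 2, against 1.52% of all genes. In edgeR it was, for example, 0.74 for Hadhb (adjusted p = 0.0878) and 0.97 for Acsl1 (adjusted p = 0.102), and it lay above 0 in 18. With the GC slope 8 of the 20 passed that test above 0, against 3.99% of all genes.

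Clock genes had medians of opposite sign in the sexes. The direct test of the male minus female difference called 0 of them in edgeR and 7 above 0 in DESeq2, against 1.52% of all genes in DESeq2. Of 19 tested, 13 lay below 0 in females (median -0.596) and 16 above 0 in males (median 0.451). Dbp, an output gene of the clock, was at 18.8 to 178 CPM (median 74.4) in chow females and 9.09 to 48.3 CPM (median 15.9) in high-fat females. Chow males had 85.1, 66.7, 82.3, 43.1 and 80.3 CPM, and high-fat males had a lowest level of 44.5 CPM and a median of 128 CPM. The ranges overlapped in both sexes. Within chow females, Dbp was at 121, 178 and 119 CPM in replicates 1 to 3 and at 22.9, 18.8 and 30 CPM in replicates 4 to 6. Ciart, a repressor of the clock, followed the same split, with 12.9, 10.6 and 8.22 CPM against 1.04, 0.749 and 1.49 CPM. The male minus female difference was 4.16 ± 0.93 for Ciart (adjusted p = 0.0569), 1.39 for Tef (adjusted p = 0.0561), 1.21 for Bhlhe40 (adjusted p = 0.0561) and 2.63 for Dbp (adjusted p = 0.112). With the GC slope 9 clock genes passed above 0, against 3.99% of all genes, and 1 below, against 591 of 16278 genes. The time of day of collection was not in the labels. Its part in these values, and that of the animal number, was not tested.

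**Figure D3:**
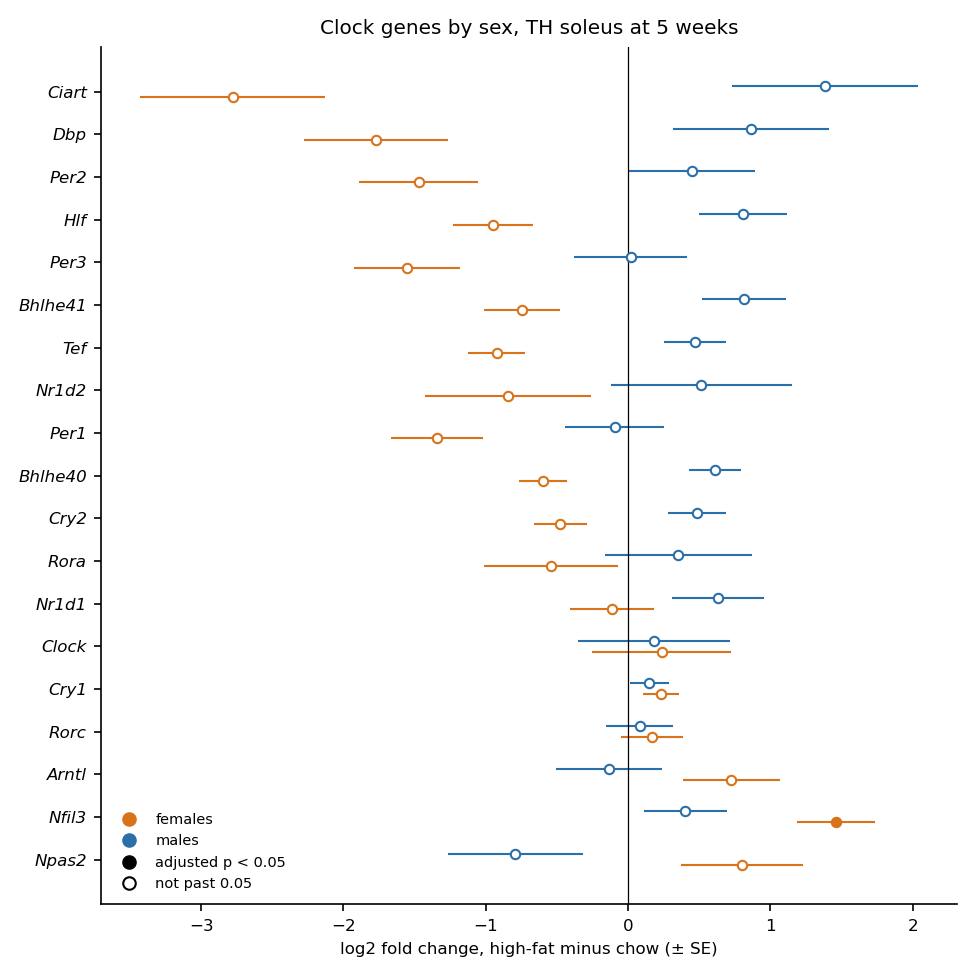
Log2 fold change (high-fat minus chow) of the 19 clock genes in females and males of TH soleus at 5 weeks, with SE. In females 13 genes lie below 0 and in males 16 lie above 0, and Nfil3 is the one called gene, in females.

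In B6 soleus after the same week, 60 genes rose (0.351%) and 17 fell (0.0994%) of 17103 tested. The split depended on the fit, in which B6 and TH libraries were handled together. It was 78 higher and 80 lower when the nerve-rich TH libraries were left out. No B6 library was screened for nerve markers or left out. The split was 94 and 35 under DESeq2, 21 and 12 with no filter on low counts, and 16 and 7 with a replicate block. With the GC slope 303 genes were called in all. Of the 23 genes that rose in TH, 10 also rose in B6: Chrna2 (2.18), Slc25a34 (1.41), Acot1 (1.40), BC048679 (1.18), Acot2 (1.07), Plin5 (1.05), Fbp2 (0.96), Pex11a (0.57), Alpk2 (0.51) and Plbd1 (0.48). Of the 23, 22 lay above 0 in B6. Of the 12 genes that fell in TH, 0 passed in B6, and Chrng was at -0.29, Mvd at -0.13 and Pfkfb4 at -0.03 there. Because the genes were chosen on the TH libraries, that choice alone favours larger values in TH. The TH minus B6 test called 0 of 17103 genes (0%) in edgeR, with 1069 at an unadjusted p under 0.05 and 8 in DESeq2. It called 38 (0.222%) with the GC slope, and 0 to 2 when any 1 TH library was left out.

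Angptl4 was the gene of the 35 with the widest gap between the strains. Scaled over the 49 libraries of both strains, its B6 level was 4.59 to 17.2 CPM (median 6.73) in chow females and 3.2 to 9.38 CPM (median 4.29) in high-fat females, where TH high-fat females had 25.1 to 140 CPM. In B6 males it was 2.24 to 23.2 CPM (median 13.3) on chow and 10.5 to 47.2 CPM (median 31.1) on high-fat. The B6 difference was 0.21 ± 0.33 (adjusted p = 1), and TH minus B6 was 2.24 ± 0.47 (adjusted p = 0.122), or 2.26 (adjusted p = 0.0266) with the GC slope. Cpt1a in B6 was at 18.3 to 28.1 CPM (median 21.2) in chow females and 4.8 to 16.7 CPM (median 14.5) in high-fat females, lower and without overlap. In B6 males it was at 19.6 to 33.7 CPM (median 25.7) on chow and 27.1 to 38.9 CPM (median 34.9) on high-fat. Its B6 difference of -0.16 thus averages sexes with medians that moved in opposite directions. The TH minus B6 difference of Cpt1a was 0.90 ± 0.21 (adjusted p = 0.192, and 0.0328 with the GC slope). Pfkfb4 was the other of the 35 called with the GC slope (-0.58, adjusted p = 0.0115). Pdk4 in B6 had medians of 608 CPM on chow and 568 CPM on high-fat in females, and of 445 and 1030 CPM in males. Averaged over these sexes, its B6 difference was 0.85 ± 0.32 (adjusted p = 0.332), 1.12 ± 0.45 less than in TH (adjusted p = 0.615). For Chrna2 the difference was -0.18 ± 0.48, for Plin5 -0.02 ± 0.26 and for Pex11a -0.01 ± 0.13, each with an adjusted p of 1.

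Chrng started from unlike levels in the strains. In B6 it was at 0.72 to 1.71 CPM in chow females and 0.522 to 1.6 CPM in chow males, below every TH chow library (2.49 to 4.48 CPM in females and 3.05 to 8.39 CPM in males on the same scaling). The TH minus B6 difference of the diet response was -0.71 ± 0.31 (adjusted p = 0.685).

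**Figure D4:**
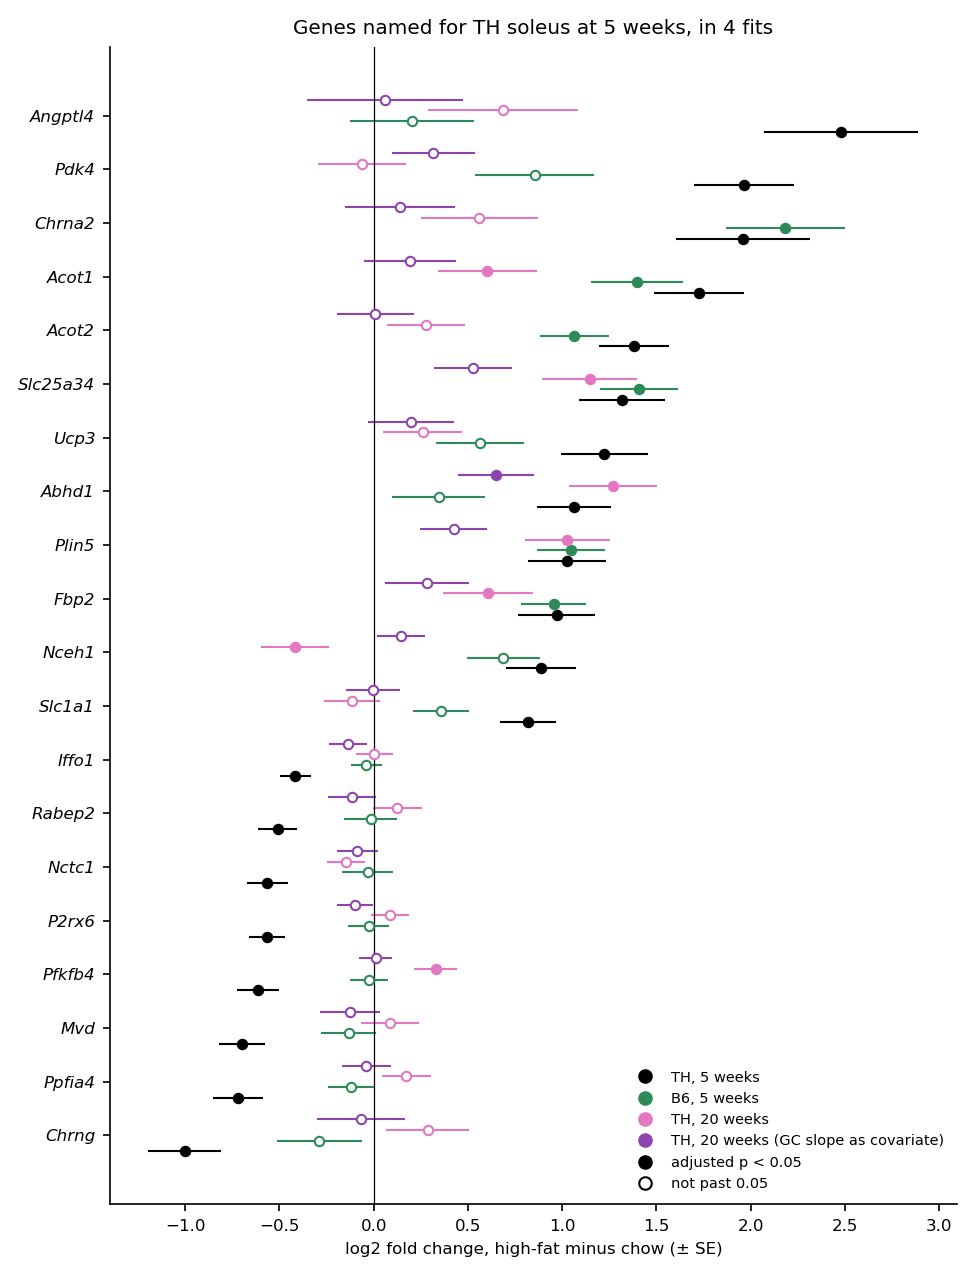
Log2 fold change (high-fat minus chow) with SE of the 20 genes named by the size rule in TH soleus at 5 weeks (black), in B6 soleus at 5 weeks (green) and in TH soleus at 20 weeks without (pink) and with (purple) the GC slope as a covariate. At 20 weeks Slc25a34 is at 1.15 without and 0.53 with the slope, and Chrna2, at 1.96 in TH and 2.18 in B6 at 5 weeks, is at 0.56 and 0.14.

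After 16 weeks of feeding, the diet differences of Angptl4, Pdk4, Chrna2, Acot1 and Acot2 lay below those at 5 weeks. The 20-week minus 5-week diet difference lay above 0 for 3331 genes (19.8%) and below 0 for 3242 (19.3%) of 16829 tested. Without the nerve-rich libraries at 5 weeks these were 2833 and 2226 genes, and libraries at 20 weeks were not screened. At 20 weeks the GC slope moved with diet, at 3.82 to 11.5 in high-fat males against -8.61 to 5.5 in chow males, and -6.01 to 7.82 in high-fat females against -7.31 to -1.43 in chow females. With the slope as a covariate 465 genes lay above 0 (2.76%) and 726 below (4.31%). Of the 23 rises, the difference was called below 0 for 13 in both fits, with and without the slope. They included Angptl4 (-1.77 without and -2.48 with the slope), Pdk4 (-2.04 and -1.64), Chrna2 (-1.47 and -1.82), Acot1 (-1.15 and -1.46), Acot2 (-1.13 and -1.36), Ucp3 (-0.98 and -1.04) and Cpt1a (-0.79 and -0.76). Of the 12 falls, the 20-week minus 5-week difference was called above 0 for 10 without the slope and for 5 with it: P2rx6, Pfkfb4, Ppfia4, 1810059H22Rik and Gm5091. Without the slope, the 20-week diet difference itself lay above 0 for 7 of those 10. In that fit Pfkfb4 was called higher at 20 weeks (0.33, edgeR adjusted p = 0.0127), against 32.7% of all genes. With the slope Pfkfb4 was at 0.01 and not called (adjusted p = 0.957). These genes were chosen on the 5-week libraries, so the choice alone favours larger values at 5 weeks. Age and length of feeding changed together and cannot be told apart.

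Chow levels were also unlike at the later age. Scaled over the 48 TH libraries, Pdk4 on chow was at 502 to 1510 CPM (median 980) in females and 884 to 2020 CPM (median 1560) in males at 20 weeks, against 278 to 667 CPM and 94.8 to 528 CPM at 5 weeks. On the high-fat diet at 20 weeks it was at 512 to 2010 CPM and 887 to 1310 CPM, within or overlapping the chow ranges. Acot1 in chow males had a median of 32.7 CPM at 20 weeks and 10.4 CPM at 5 weeks, with 62.6 CPM in high-fat males at 20 weeks. At 20 weeks itself, the number of the 23 rises called higher on the high-fat diet depended on the slope. Without it 11 of the 23 were called higher, against 32.7% of all genes, among them Slc25a34 (1.15, adjusted p = 0.000386), Plin5 (1.03, adjusted p = 0.000394), Fbp2 (0.61, adjusted p = 0.0258) and Acot1 (0.60, adjusted p = 0.0401), and Nceh1 was called lower (-0.42, adjusted p = 0.0383). With the slope 6 were called higher, against 4.66% of all genes: Ces2d-ps (0.98), BC048679 (0.79), Abhd1 (0.65), Hr (0.42), Nudt7 (0.35) and Plbd1 (0.31). Of the 12 falls, Gm5091 was called lower with the slope (-0.62), against 6.47% of all genes. Without the slope Cdhr3 was called lower (-0.47), in a fit that called 5951 of 16829 genes lower. With the slope Angptl4 was at 0.06 ± 0.42 and Pdk4 at 0.32 ± 0.22, and without it they were at 0.69 and -0.06, not called in either fit.

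By the size rule, the largest changes in the time comparison were in genes outside the 5-week set. Rn7s6, a noncoding RNA of the signal recognition particle (2.48), Erfe, the hormone erythroferrone (1.80), Ppp1r10 (1.76) and Klf2, a zinc finger factor (1.67), were higher, and they were called with the slope too (2.53, 1.60, 1.69 and 1.28). The lower ones included the myelin gene Ugt8a (-3.27), the Y-linked Kdm5d (-3.01) and the mitochondrial mt-Atp8 (-2.74). These 3 were not called with the slope, and mt-Atp8 then changed sign (0.75). The comparison averages the sexes, so the value of Kdm5d includes female libraries, which lack the Y chromosome. The nerve-rich libraries at 5 weeks were kept in this fit, and their part in Ugt8a was not tested.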

How the data were processed

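The authors deposited raw read counts per gene for 56980 Ensembl identifiers, and those counts were used here. Per the labels' protocols, RNA with an integrity number above 8 went into stranded poly(A) libraries. Per the submitters' processing notes, Trimmomatic 0.39, HISAT2 2.2.1, SAMtools, DESeq and DESeq2 were used with build GRCm39. Which program counted the reads, whether by strand and on which annotation, is not given in the sources used here. Symbols came from a reference table (52073 identifiers matched).

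Here, edgeR 4.0.16 (R 4.3.3) fitted quasi-likelihood models with TMM factors after filterByExpr (minimum count 10, minimum total 15), and calls needed an adjusted p (Benjamini-Hochberg) under 0.05. The diet fit had sex as a covariate; other fits had 1 mean per group. SEs are those of log2 fold changes. DESeq2 1.42.0 served as an alternative. Code was tested on simulated data.

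Genes were named by size: up to 12 called each way, of those with the same sign in both sexes and mean log2 CPM not under 1, leaving out predicted genes and pseudogenes, and 4 each way in other tests. Other called genes were named after their values were seen. The comparison, the lists and the rule were chosen with earlier results of these data known. The GC slope covariate and the fits without nerve-rich libraries (marker sum over 5 times the median) were added after seeing the data. Only the 24 TH libraries at 5 weeks were screened for nerve markers. Normalized tables were not used. Some genes of the lists and of the naming rule are not reported here.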

Additional observations from a re-analysis of the deposited data

Results flagged for a closer look

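In 5 of 84 sets of values examined (a gene or the depth in 1 sex and diet group), 1 library stood far from the others; chance gives about 1 in 20. Acot2 reached 29.1 CPM in replicate 1 of the chow females (next 21.5). Plin5 reached 113 CPM in replicate 1 of the chow males (next 46.8), and Chrng reached 8.37 CPM in replicate 5 of the chow males (next 4.35). P2rx6 was lowest at 19.6 CPM in replicate 4 of the chow males (next 28.1), which is a nerve-rich library. Replicate 6 of the chow females had 4169650 reads (next 9936022).

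The diet difference at 20 weeks minus that at 5 weeks passed edgeR's test of the difference for 16 of the 20 genes named by size. On the log2 scale it was -1.77 for Angptl4, -2.04 for Pdk4, -1.47 for Chrna2, -1.15 for Acot1, -1.13 for Acot2, -0.98 for Ucp3, -1.34 for Nceh1 and -0.97 for Slc1a1. It was 1.27 for Chrng, 0.87 for Ppfia4, 0.77 for Mvd, 0.91 for Pfkfb4, 0.64 for P2rx6, 0.38 for Nctc1, 0.62 for Rabep2 and 0.40 for Iffo1. The library GC slope moved with diet at 20 weeks.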

How the results depend on the processing

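None of the 35 genes changed direction under any alternative run. Of the 35, 35 were called under DESeq2 and with the GC slope, 34 with RLE factors, 33 with all soleus groups in 1 fit, 30 with the animal number range, 23 with no filter on low counts and 21 without the nerve-rich libraries. The diet count of 35 became 23 with no filter, 201 with the GC slope, 98 under DESeq2, 123 with all soleus groups and 22 without nerve-rich libraries. In the same order, the male count of 208 became 39, 1927, 493, 476 and 35, and the share called in females, 0.0799% of genes tested, became 0.0247%, 0.633%, 0.295%, 0.405% and 0.0122%. The sex difference (0 genes) gave 37 with RLE factors, 1241 with the GC slope, 336 under DESeq2, 290 with all soleus groups and 1 without nerve-rich libraries. The strain difference (0 genes) gave 38 with the GC slope, 8 under DESeq2 and 24 with all soleus groups. The time difference of 6573 genes became 1191 with the GC slope, and mt-Atp8 reversed from -2.74 to 0.75. The fuel switch count of 9 became 14 with all soleus groups. The cause of these moves was not tested.

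Same-numbered libraries did not vary together: of 11 pairs, 4 had a correlation over 0.1, from -0.74 to 0.758 in all, and 2 libraries matched their own number best. With a replicate block the counts were 18 over both sexes (16 of the 35), 0 (0%) in females and 6 in males, 0 for sex, 0 for strain and 5559 for time.

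Leaving out 1 library gave 21 to 58 genes over both sexes, 0.0123% to 0.203% of genes in females, 14 to 355 in males, 0 to 281 for sex, 0 to 2 for strain, 4743 to 8736 for time and 7 to 9 fuel switch genes. Depth, at 4169650 to 15725272 reads, limits genes near 1 CPM, such as Chrna2.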
